A study of Mus musculus with 6 samples.

Results

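Kap encodes the kidney androgen regulated protein, and its cleaved and decaying messenger RNA was described here in 6 mouse tissues. The members were the distinct 5′ ends of sequence tags on the minus strand of chromosome 6 between positions 133798001 and 133806000 of the mouse genome build mm9. There were 483 such ends, out of 449338 distinct ends in the 6 libraries together. The gene was chosen because its kidney level was high, so its levels by tissue are given as a description and not as a test.

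The method was PARE, parallel analysis of RNA ends, which reads a short tag from the 5′ end of polyadenylated RNAs that carry a 5′ monophosphate. Such ends can arise when an RNA is cut, or when its cap is removed before decay from the 5′ end, and a tag therefore marks where an RNA fragment starts. Each tissue gave 1 library, taken from whole kidney, whole lung, whole spleen, whole liver, whole ovary and whole brain of adult mice of BALB-c background. The labels name no treatment and no engineered allele, and neither the sex and exact age nor the number of animals behind a library is stated in the sources read here.

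Kap is a small gene that the mouse kidney transcribes in the epithelium of the proximal tubule, the segment that takes back most of the filtered fluid. Androgens raise its transcription there, and other hormones contribute, which made it a standard gene for the study of hormone control in the kidney. Messenger RNAs lose their cap and are degraded from the 5′ end by exonucleases, and they can also be cut inside by endonucleases. Loss of the cap leaves a 5′ monophosphate end, and so do the cuts of some endonucleases but not of all.

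The kidney library held 162270 uniquely located tags and the lung library 493121, while the other libraries were shallower, with between 29213 tags in ovary and 78952 tags in liver. A count of 0 therefore allowed up to 6.08 tags per 1000000 unique tags (CPM) in lung, the deepest library, and up to 102.7 CPM in ovary, the shallowest. With 1 library per tissue no difference between tissues has a replicate check. Intervals are at the 95% level, are exact, and cover only the error of counting, since reads copied by PCR are not independent molecules. The tissues were bulk samples, so fewer cells of a type and less RNA per cell cannot be told apart.

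A few stretches of sequence carry the findings and are shown first. The promoter stretch holds the 60 bases before the RefSeq start of Kap, from RefSeq in build GRCm38.p6, chr6:133853668-133853727 on the minus strand, with the TATAAA motif in capitals. The other stretches were read from the overlapping tags themselves, on the minus strand of mm9. They cover chr6:133802040-133802099, with the strongest ends of the gene, and chr6:133800071-133800122, which ends with the stop codon. Capitals there mark the first base of tags at ends with at least 100 tags over the 6 libraries, of which the first of these stretches holds 9 and the other 2.
Kap promoter: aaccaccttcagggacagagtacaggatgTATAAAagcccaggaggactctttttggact
Kap coding stretch, transcript positions 131 to 190: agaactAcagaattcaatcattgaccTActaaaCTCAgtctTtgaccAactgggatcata
Kap last coding stretch, transcript positions 359 to 410: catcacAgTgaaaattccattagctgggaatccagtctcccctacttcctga

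The name was checked on the sequence. In all, 1119 tags matched the start of the Kap entry in the RefSeq promoter table, and all of them placed the annotated transcription start at 1 position, 133803685 of mm9. The TATAAA motif, the core promoter element bound by the TATA-binding protein, began 31 bases before that start. TATAAA lying wholly between 45 and 16 bases before the start was found on the same strand in 2.14% of the 32851 promoters of the table, and on either strand in 2.72%. Kap had none on the other strand in that window.

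The level of Kap tags was highest in the kidney library. Kidney had 8762 Kap tags, or 53996 CPM (interval 52872 to 55139), which was 5.40% of all its unique tags. Lung had 2299 tags, or 4662 CPM (4474 to 4857). Spleen had 31 tags (722 CPM, 491 to 1025), liver 25 (317 CPM, 205 to 467), ovary 9 (308 CPM, 141 to 585) and brain 3 (89.9 CPM, 18.5 to 263). By CPM, kidney and lung were above the other 4 libraries, whose intervals ended at 1025 or below. By distinct ends per 1000000 distinct ends, kidney had 4178 and lung 1439, while spleen, with 1136, was close to lung. That unit has a ceiling, since only 539 positions of Kap could show an end and kidney and lung had tags at most of them. It also divides by the distinct ends of the whole library, 108193 in kidney, 270960 in lung and 25523 in spleen. The closeness of spleen and lung in this unit is therefore no measure of like levels. Among strand-specific windows of 8 kb, the Kap region ranked 2 of 23936 windows with tags in kidney and 8 of 40224 in lung. The windows were laid out from the start of the Kap region, so Kap was kept whole while other genes could be split. The kidney rank also rests on the level for which the gene was chosen.

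The ratio of the kidney level to the lung level was 11.6 (interval 11.1 to 12.1). Against the other libraries the kidney level was 74.8 times that of spleen (52.7 to 110), 171 times that of liver (115 to 264), 175 times that of ovary (92.3 to 383) and 601 times that of brain (206 to 2914). Down the order of levels, lung exceeded spleen 6.46-fold (4.54 to 9.53) and spleen exceeded liver 2.28-fold (1.30 to 4.03). The neighbours liver and ovary, with a ratio of 1.03 (0.464 to 2.50), could not be separated at this depth, nor could ovary and brain, with a ratio of 3.43 (0.856 to 19.7). These ratios depend on the scaling and on the unit of counting. Trimmed-mean scaling gave a kidney over lung ratio of 18.2 over windows with at least 100 tags. Over all windows it gave kidney ratios of 146 to spleen, 380 to ovary and 1281 to brain, and a lung over spleen ratio of 13.5. Spleen and liver were then not separated, with ratios of 1.26 (0.719 to 2.22) over all windows and 1.53 (0.877 to 2.71) over the larger ones. The liver over ovary ratio was 2.07 (0.934 to 5.04) and 1.61 (0.728 to 3.93) in the same order, still not separated. Counting each distinct end once gave kidney ratios of 2.90 to lung, 3.68 to spleen, 7.95 to liver, 11.0 to ovary and 39.0 to brain, and a lung over spleen ratio of 1.27. Those ratios are limited by the ceiling on ends in kidney and lung and depend on the distinct ends of each whole library. They do not give the size of a difference in level.

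**Figure D1:**
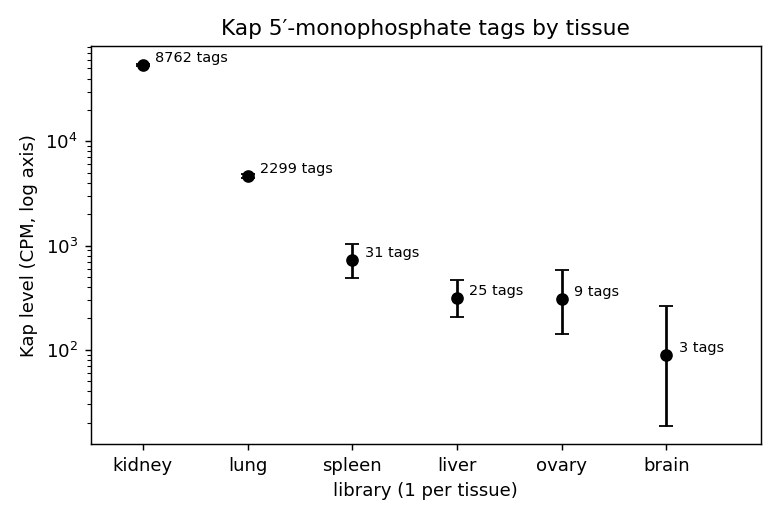
Kap tags per 1000000 unique tags (CPM, log axis) in each library, 1 library per tissue, with the tag count beside each point and exact Poisson 95% intervals as bars. Kidney lies at 53996 CPM and lung at 4662 CPM, both above the other 4 libraries, whose intervals run from 18.5 to 1025 CPM.

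Of 735 windows of 2 kb with at least 100 tags in kidney and lung together, 8.84% were at least 5-fold higher in kidney, and all 3 Kap windows tested were among them. This contrast chose the gene. The 3 windows had ratios of 6.60, 9.04 and 16.6, against a median of 0.651 over all windows.

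Tags of Miox, an enzyme of inositol breakdown that is made in the proximal tubule, were the only ones of 15 listed proximal tubule genes that could be placed on mm9. Miox had 456 tags (2810 CPM) in kidney and 101 tags (205 CPM) in lung, against 2 in spleen, 1 each in ovary and brain and 0 in liver. Sftpa1, a surfactant protein of the lung and the only one of 4 listed lung genes that could be placed, had 1 tag in kidney and 1893 tags in lung, with 11 in liver, 1 in spleen and 0 in ovary and brain. The lung library thus held tags of a kidney gene besides Kap, and their part in the lung level of Kap was not tested. No other listed marker could be placed under its listed symbol. Genes placed outside the lists, and named after their values were seen, include the beta globin gene Hbb-bs of red blood cells, with 127 tags in kidney and 3831 in lung. They also include S100g, a calcium-binding protein of other kidney tubule segments, with 426 in kidney and 283 in lung.

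The ends fell into 4 blocks separated by gaps of 1472, 145 and 1642 nt. In transcript order, the first block had ends between 133803744 and 133803587 (98 distinct ends), the second between 133802115 and 133801955 (148 ends), the third between 133801810 and 133801767 (32 ends) and the fourth between 133800125 and 133799891 (202 ends). Only 3 ends, with 1 kidney tag each, lay outside the blocks. No tag of any library lay on the plus strand of the region, and none lay on the minus strand within 2 kb on either side. The next minus-strand tags were 54481 nt below and 143914 nt above.

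Joined in order from the RefSeq start, the overlapping tags of the blocks read a transcript of 609 nt. Its first ATG lay at position 45 and opened a reading frame of 121 codons, up to a stop codon at position 408. The last AATAAA, the usual polyadenylation signal, began at position 587, 22 bases before the last base read. The read transcript spanned 3814 nt of mm9, against a RefSeq gene length of 3813 nt in GRCm38. The joins left 3, 1 and 2 bases that could belong to either side, and no transcript or mm9 annotation was used to check them. Identity with the joined sequence over the whole tag was found for 97.4% of kidney tags and 97.3% of lung tags.

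Ends were spread over nearly the whole transcript. A tag that crosses a join cannot be placed without a gap, which left 539 positions where an end could be seen. Of these, 443 (82.2%) had a tag in kidney and 390 (72.4%) in lung. Spleen had tags at 29 positions, liver at 24, ovary at 9 and brain at 3. A further 11 kidney tags, at 8 ends, lay outside the joined transcript, and no other library had such tags.

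**Figure D2:**
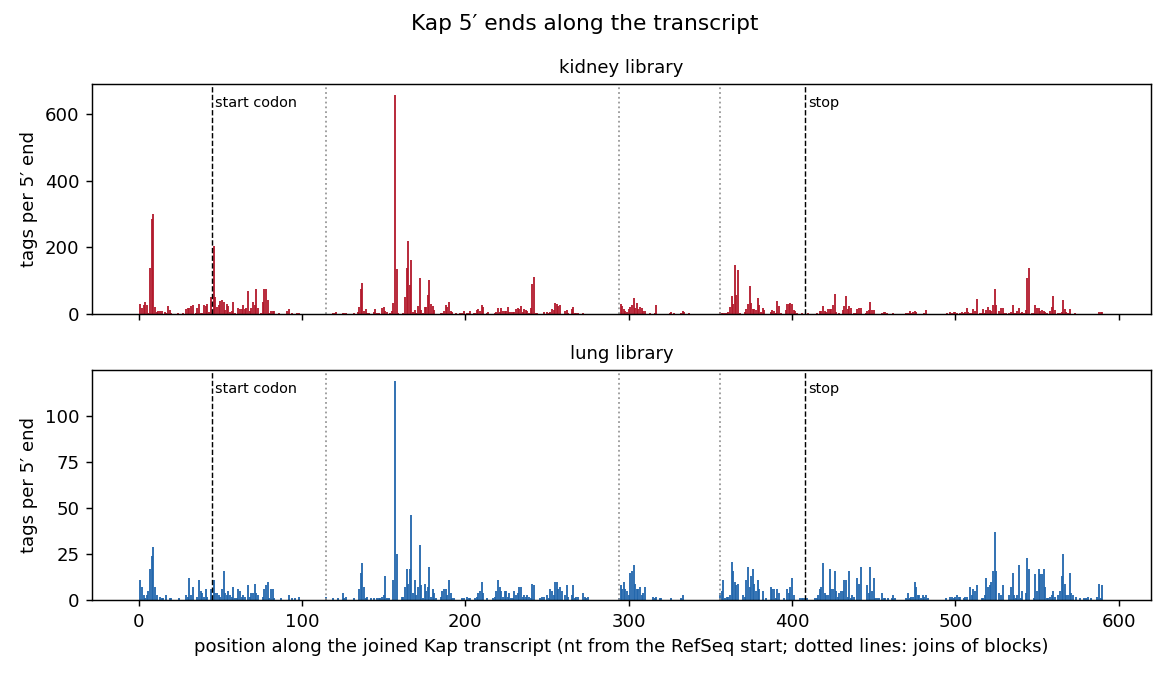
Tags at each 5′ end along the joined Kap transcript (nt from the RefSeq start) in the kidney library above and the lung library below, on separate linear axes. Dashed lines mark the start codon and the stop codon and dotted lines the joins of blocks, and the tallest end in both libraries is at position 157, with 659 tags in kidney and 119 in lung.

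The strongest end was the same in kidney and lung. It lay at position 157, in the coding sequence at the second base of codon 38, and its tag started at the first of the capitals TA in the coding stretch shown above.
Kap position 157, mm9 chr6:133802054-133802073 minus strand: Tactaaactcagtctttgac
This end had 659 tags in kidney, 119 in lung, 1 in ovary and 0 in spleen, liver and brain. It held 7.52% of the Kap tags of kidney (interval 6.98 to 8.09) and 5.18% of those of lung (4.31 to 6.16). Its kidney over lung ratio was 16.8 (13.8 to 20.6).

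A dense group of ends followed it. Positions 157 to 178, chosen after their values were seen, held 1825 tags or 20.8% of the kidney total and 347 tags or 15.1% of the lung total. Within it, position 165 had 220 tags in kidney and 9 in lung, with 1 in spleen, and its ratio of 74.3 (38.4 to 165) was above the interval of the whole gene. Position 167, by contrast, had 161 tags in kidney and 46 in lung, a ratio of 10.6 (7.62 to 15.1). Ends 2 bases apart thus had different balances between both libraries. Positions 158 and 164 had 134 and 139 tags in kidney, against 25 and 17 in lung.
Kap position 165, mm9 chr6:133802046-133802065 minus strand: Tcagtctttgaccaactggg
Kap position 167, mm9 chr6:133802044-133802063 minus strand: Agtctttgaccaactgggat

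The next strongest group lay near the 5′ end of the transcript. Ends at positions 9 and 8 had 302 and 285 tags in kidney, against 29 and 24 in lung, with 1 tag at position 8 in spleen and 1 in liver. Positions 7 to 9, again picked from the data, together held 724 tags (8.26%) in kidney and 70 (3.04%) in lung, a ratio of 31.4 (24.6 to 40.8). The annotated first base itself had only 29 tags in kidney and 11 in lung. The ends at positions 8 and 9 therefore lay inside the annotated transcript, 7 and 8 bases from its first base.
Kap position 9, mm9 chr6:133803658-133803677 minus strand: Tctcctgttcactggttgcc
Kap position 8, mm9 chr6:133803659-133803678 minus strand: Ttctcctgttcactggttgc

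An end with many kidney tags fell on the start codon. Position 46, the second base of the first ATG, had 205 tags in kidney, 11 in lung, 1 in spleen and 0 in liver, ovary and brain. Its ratio was 56.6 (31.0 to 115). In kidney it was the end with the most tags in the first block after positions 8 and 9.
Kap position 46, mm9 chr6:133803620-133803640 minus strand: Tgatgcttttcaaggtcctgg

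Toward the 3′ end, position 365, in codon 107, had 146 tags in kidney, 10 in lung, 1 in liver and 0 in the other libraries, and position 545, after the stop codon, had 139 in kidney and 17 in lung. The stop codon itself was not a place of many ends. Positions 403 to 416, picked from the data to surround it, held 15 tags in kidney and 10 in lung.
Kap position 365, mm9 chr6:133800096-133800116 minus strand: Agtgaaaattccattagctgg
Kap position 545, mm9 chr6:133799917-133799936 minus strand: Aggcatctctaagctctgcc

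The 10 strongest ends of each library held 27.3% of its Kap tags in kidney and 16.5% in lung, and 4 ends belonged to both sets. In lung, the third of its ends by tags, at position 524 after the stop codon, had 74 tags in kidney and 37 in lung, a ratio of 6.08 (4.04 to 9.28). In spleen the most tags at any end were 2, at 2 ends, position 125 being one of them. In liver the most were 2, at position 552, and in ovary and brain every end had 1 tag.

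The kidney tags lay closer to the 5′ end than the lung tags. The first block held 28.3% of the Kap tags in kidney (interval 27.4 to 29.3) and 15.5% in lung (14.1 to 17.1). The fourth block held 30.5% in kidney (29.6 to 31.5) and 46.2% in lung (44.1 to 48.3). The shares of the second block were 36.7% in kidney and 32.1% in lung, and those of the third 4.39% in kidney and 6.22% in lung. The kidney over lung ratio was accordingly 21.1 (18.9 to 23.7) in the first block, 13.3 (12.2 to 14.4) in the second, 8.18 (6.74 to 9.98) in the third and 7.65 (7.12 to 8.22) in the fourth. The other 4 libraries together had 68 tags, with 42.6% in the fourth block (30.7 to 55.2). By distinct ends, the first block held 94 of 452 in kidney (20.8%) and 71 of 390 in lung. The fourth block held 184 ends in kidney (40.7%) and 174 in lung. The difference between both libraries was thus described by tags, and most available positions had a tag in each.

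In steps of 100 nt the ratios were 21.1, 14.6, 10.1, 10.9, 5.92 and 6.53 from the start to position 600, highest in the first step and lowest in the fifth. In kidney the stretch before the ATG had 178 CPM per position, the coding sequence 115 and the stretch after the stop codon 55.8. In lung the levels per position were 8.53, 8.50 and 8.95 CPM in the same order, so its tags were spread evenly over the 3 regions. By tags, the stretch after the stop codon held 18.6% of the total in kidney and 34.5% in lung.

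**Figure D3:**
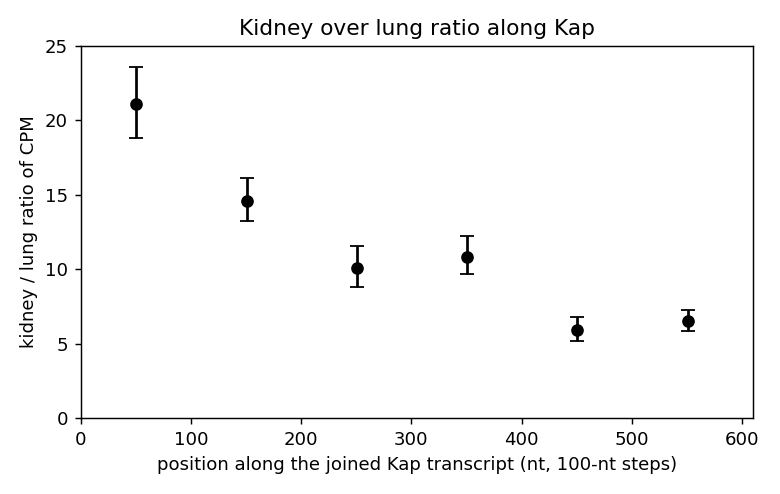
Kidney over lung ratio of CPM in steps of 100 nt along the joined Kap transcript, 1 library each, with exact 95% counting intervals as bars. The ratio is 21.1 in the step nearest the 5′ end and 6.53 in the last step.

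A 5′ lean in kidney was not peculiar to Kap. The mean position of the tags along the gene, as a fraction of its genomic length from the start, was 0.475 in kidney and 0.616 in lung for Kap, a difference of -0.140 as kidney minus lung. For 16 other genes that could be placed and had at least 100 tags in each library, the median difference was -0.0863. It was negative in 15 of the 16 and ran between -0.214 for Ndufa4 and 0.111 for Atp5e. In 5 of the 16 it was lower than in Kap, and in Miox it was -0.0835. Relative positions were taken on the genome, introns included, so genes of different structure are not on one scale.

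Kidney and lung shared most of their ends, and both had tags at most of the available positions. Of the 452 ends of kidney, 360 (79.6%) were also seen in lung, and they were 92.3% of the 390 ends of lung and carried 97.9% of its Kap tags. Allowing 1 nt, the shares were 94.5% of kidney ends and 99.2% of lung ends. Over the 482 ends seen in either library, the tag counts had a Spearman correlation of 0.705 and a Pearson correlation of 0.801. These describe 2 libraries on shared sequence, and ends are not independent replicates. The sparse libraries fell on the same ends, since 59 of the 60 ends of spleen, liver, ovary and brain were kidney ends. That includes 28 of 29 ends in spleen, 24 of 24 in liver, 9 of 9 in ovary and 3 of 3 in brain. Kidney had a tag at 82.2% of the available positions and lung at 72.4%, so most places where a tag could fall were ends in each. A large overlap would be seen in any case at such shares, above all within 1 nt.

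Single ends still differed in their balance. Among 154 ends with at least 20 tags in kidney and lung together, the kidney over lung ratio ran between 1.64 and 106 with a median of 12.2, and none was below 1. One of these ends had no lung tag. The interval lay wholly above the ratio of the whole gene at 23 ends and wholly below it at 31. No allowance was made for the number of intervals, and ends of other genes were not counted in this way. The ratio also fell along the gene, from 21.1 in the first 100 nt to 6.53 in the last step. How far these ends only follow that trend was not tested.

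**Figure D4:**
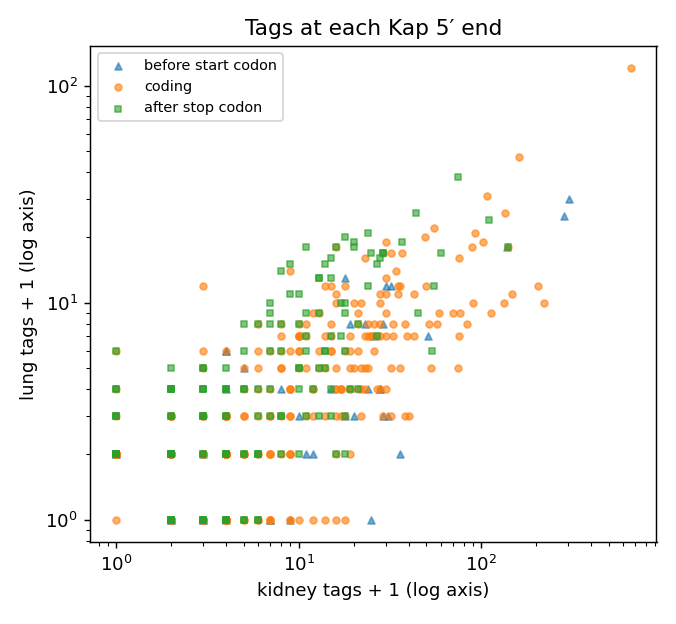
Tags at each Kap 5′ end in kidney (horizontal) against lung (vertical), both as tags plus 1 on log axes, with ends before the start codon as triangles, coding ends as circles and ends after the stop codon as squares. The end with 659 kidney and 119 lung tags lies at the upper right, and ends after the stop codon lie mostly toward the lung side of the cloud.

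Tags per distinct end were 19.4 in kidney and 5.89 in lung, against 1.07 in spleen, 1.04 in liver and 1 in ovary and brain. This quantity depends on depth. Reduced to 25 Kap tags each, by the expected number of distinct ends, the values were 1.14 in kidney, 1.08 in lung, 1.05 in spleen and 1.04 in liver. At 2299 tags, kidney would show 344 distinct ends (6.68 tags per end) and lung 390 (5.89), so the kidney tags were on somewhat fewer ends at equal number. By block, kidney had 26.4, 22.8, 12.8 and 14.5 tags per end from the first to the fourth, and lung 5.03, 6.14, 5.72 and 6.10. In lung the 3 windows of Kap had 6.36, 5.43 and 6.14 tags per end. Other lung windows of like tag number had medians of 3.52, 5.38 and 5.77 over 110, 59 and 55 windows. Of these, 30, 29 and 26 had more tags per end than the Kap window. In the same order Kap had 12.8, 14.8 and 26.4 tags per end in kidney, where only 1 to 3 such windows existed. Beside the 12.8, 2 of 3 were higher, with a median of 105. Beside the 14.8 and the 26.4 there was only 1, at 5.92. Ends with a single tag numbered 69 in kidney and 88 in lung.

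The ends in the coding sequence were unevenly spread over the reading frame. Of 5849 coding tags in kidney, 45.5% (interval 44.2 to 46.8) began at the second base of a codon, 30.7% at the third and 23.8% at the first. Lung had nearly the same shares, with 46.6% (43.9 to 49.3) at the second, 28.8% at the third and 24.6% at the first of 1318 tags. The positions available were 33.0%, 33.3% and 33.7% for the first, the second and the third base. Without the end at position 157 the share at the second base was 38.6% in kidney and 41.3% in lung. When each end was counted once, the share was 33.7% in kidney and 33.8% in lung. The second base thus had more tags per end. Tags lay at 82.2% of all available positions in kidney and 72.4% in lung. The share by distinct ends can then differ little from the share of positions, and cannot show whether the second base had more ends.

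The lead of the second base was not seen in every block. In kidney it held 49.9% and 47.8% of the coding tags in the first and the second block. In the third and the fourth block it held 33.0% and 37.9%, and the third base held 38.4% and 38.2%. In lung the second base held 49.4%, 47.8%, 37.8% and 46.2% from the first block to the fourth and led in each. The spleen library had 21 coding tags, of which 9 began at the second base, 9 at the third and 3 at the first. The bases of the codon differed in composition. G stood at 34.0% of the available first bases, 7.69% of second bases and 19.05% of the third bases, and T at 20.4%, 36.5% and 28.6%. Within each starting base, the codon base with the most tags per available position was not the same. For T, kidney had 45.1 tags per position at the second base, 22.7 at the first and 14.2 at the third, with 28.5 at the second when position 157 was left out. For A, kidney had 27.8 at the third base, 15.2 at the second and 13.9 at the first. For C it had 19.4 at the first, 16.9 at the second and 16 at the third, and for G 8.5 at the third, 4.86 at the first and 2.62 at the second. In lung, T also had most at the second base, with 9 tags per position (6.03 without position 157) against 3.52 at the first and 3.43 at the third. A had most at the third base in lung, with 5.74 against 4.38 at the second, and C at the first, with 5.18 against 4.66 at the second. The part of base composition in the frame shares was not tested further.

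**Figure D5:**
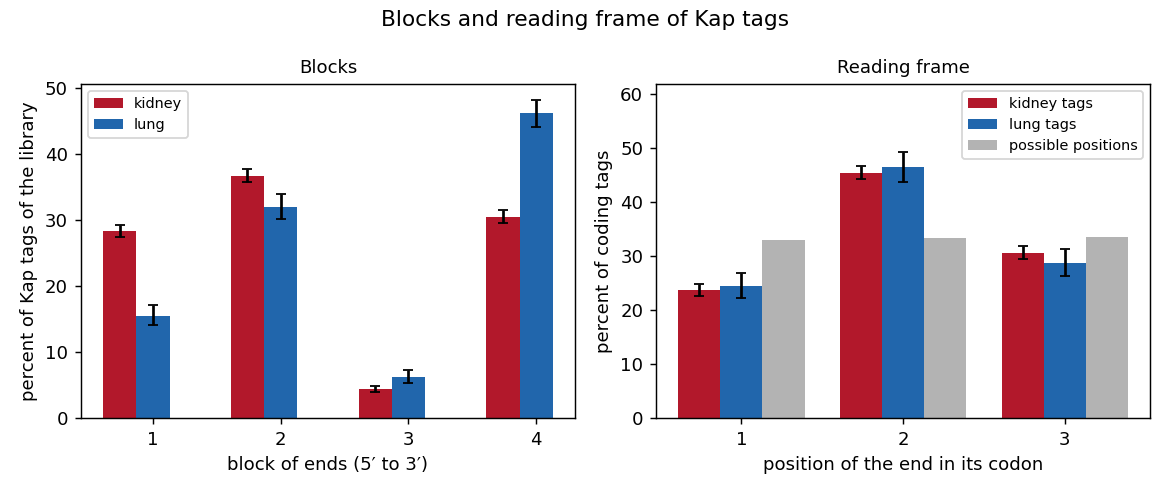
Left, share of each library's Kap tags in the 4 blocks of ends, and right, share of coding tags that begin at the first, the second or the third base of a codon, for kidney and lung, with grey bars for the positions available. Bars on the columns are exact 95% intervals, and the second base holds 45.5% in kidney and 46.6% in lung while the first block holds 28.3% in kidney and 15.5% in lung.

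Few Kap tags began with G. In kidney 45.1% of the tags began with T, 27.1% with A, 22.0% with C and 5.85% with G, and in lung 38.9%, 29.8%, 25.3% and 5.96%. The available positions of Kap held 28.4% T, 28.9% A, 22.4% C and 20.2% G. A low share of G was also seen outside Kap, with 9.46% of the other kidney tags and 10.1% of the other lung tags. By tags, T was more frequent in Kap than among the other tags, which began with T in 29.0% in kidney and 32.6% in lung. Counting each Kap end once, T began 29.1% of the ends in kidney and 32.1% in lung, beside 28.4% of the available positions. Most available positions had a tag in both libraries, so the share by ends can differ little from that of the positions. Per available position, those with T had 25.8 tags in kidney and those with G 4.70, and in lung 5.85 and 1.26. Of the 109 positions with G, 43 had no tag in kidney. The base just before the end was C for 38.6% of kidney tags and 36.9% of lung tags, while 24.2% of the distinct ends in kidney and 24.7% in lung had C there. Without the strongest end, C stood there for 33.6% of kidney tags, level with T at 33.4%. In lung C then had 33.5% and T 30.7%.

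The share of each library in the summed CPM of Kap was 89.9% for kidney, 7.76% for lung, 1.20% for spleen, 0.527% for liver, 0.513% for ovary and 0.150% for brain. The nearest profiles were sought among 373 windows of 2 kb elsewhere with at least 200 tags, by the summed absolute difference of shares divided by 2, which had a median of 0.790. The nearest window began at position 126606001 of chromosome 7 (minus strand) and was at a distance of 0.0128, with 242 tags in kidney and 71 in lung. The next was in Miox, on the plus strand of chromosome 15 from 89166001, at 0.0236, with 377 tags in kidney and 93 in lung. The other three were on chromosome 13 from 55514001 (plus strand, 0.0322), chromosome 16 from 4038001 (plus strand, 0.0395) and chromosome 2 from 69262001 (minus strand, 0.0409). Apart from Miox, these windows could not be given a gene name with the tables used. The likeness rests on 6 libraries of very unequal depth.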

How the data were processed

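The deposited tables list distinct tag sequences with mm9 location, strand and read count, and the tags were aligned with Bowtie, per the submitters' processing notes. Neither its version nor its settings are given in the sources used here. The read count of each sequence, as the authors deposited it, was taken as the tag count. The deposited score column is a display value and was not used. Tags were read from 5′ monophosphate ends of oligo(dT)-selected RNA, per the labels' protocols.

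Sequences listed at 2 locations (8.62% to 17.2% of tags by library) were left out. Levels are tags per 1000000 unique tags (CPM). Minus-strand tags were reverse complemented. A block ended where the next end was over 100 nt away, and needed 10 tags. Poisson, conditional binomial and Clopper-Pearson intervals were exact (scipy 1.17.1). With 1 library per tissue no test between tissues was made. The procedures were tested on simulated data.

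Naming by protein sequence had been intended, but the protein table was not used here. Genes were instead placed on mm9 where at least 3 tags matched the RefSeq promoter table (GRCm38.p6) after the start, with a span equal to the GRCm38 gene length. That placed 143 of 27025 genes. Coding positions came from the first ATG of the joined tags, and no protein sequence checked them.

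Named were Kap, its blocks, its 10 strongest ends, each library's strongest end and the 5 windows most like it. The gene and its lists were chosen with earlier results of these data known. Alternatives changed scaling, the unit of counting, gaps, region edges, the width of an end, depth and tags at 2 locations.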

Additional observations from a re-analysis of the deposited data

Results flagged for a closer look

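A signal in tags outside the main measurement was found among sequences listed at 2 locations. In the Kap region these numbered 84 tags in kidney (0.95% of the Kap tags with them included) and 29 in lung (1.25%), with 1 in spleen and 0 in liver, ovary and brain. In the 6 libraries together, all 30843 sequences listed at 2 locations had them on opposite strands. At position 45, the first base of the ATG, the sequence below had 31 tags in kidney and 11 in lung, where only 1 unique kidney tag lay. At position 331 there were 16 such tags in kidney and 3 in lung, and no unique kidney tag. At position 544 there were 32 in kidney and 13 in lung, besides 109 unique kidney tags.
Kap position 45, mm9 chr6:133803622-133803641 minus strand: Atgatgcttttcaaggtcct
Kap position 331, mm9 chr6:133801754-133801773 minus strand: Ttctggaagaattcactgag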

How the results depend on the processing

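No paired analysis was possible because each tissue had 1 library and the shared number 1 pairs nothing. The direction kidney over lung held under every alternative run. By distinct ends it was nearly set beforehand. Most Kap positions had a tag in both libraries, and lung held 270960 distinct ends in all against 108193 in kidney. The gene was also chosen for its kidney level. Kidney and lung levels were 49219 and 4250 CPM with sequences at 2 locations kept, 77915 and 7227 CPM with trimmed-mean scaling over all windows, 59075 and 3244 CPM over windows with at least 100 tags (chosen after seeing the data), and 49935 and 4421 CPM without the strongest Kap end. Kidney was at 58417 CPM with each library's strongest end left out of the total. Distinct ends per 1000000 distinct ends gave 4178 in kidney, 1439 in lung, 1136 in spleen and 526 in liver. The kidney over lung ratio was 10.8, 18.2, 12.3 and 2.90 with all windows, the larger windows, the total without the strongest end and distinct ends. Summing ends within 1 nt gave a strongest share of 9.44% in kidney and 6.74% in lung, and 99.2% of lung ends found in kidney. With 25 Kap tags drawn from each library, tags per end were 1.14 in kidney and 1.08 in lung. The share at the second codon base became 33.7% in kidney and 33.8% in lung by distinct ends, and 38.6% and 41.3% without the strongest end. The share of tags starting with T became 29.1% in kidney and 32.1% in lung by distinct ends, and 40.6% and 35.6% without the strongest end. Of the 5 windows most like Kap, 3 were also among the 5 nearest by correlation. The Miox window was not, with a Pearson correlation of 0.797 against 0.941 for the last of those 5. The cause of these shifts was not tested, other than that counting an end once removes its height. Blocks numbered 4 under each alternative except a gap of 200 nt, which gave 3. Windows at least 5-fold higher in kidney numbered 65, and 59 and 89 with both trimmed-mean scalings.

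The depth of the ovary and brain libraries, with 9 and 3 Kap tags, allows no statement on where their ends lie along the gene. Read counts after PCR are not molecule counts, and the intervals leave out the spread between animals.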
